A study of Mus musculus with 30 samples.

Results

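The comparison described here sets lumbar dorsal root ganglia of mice given CVAD, 2 days after treatment, against ganglia of saline-treated mice of the same day. CVAD is the combination of cyclophosphamide, vincristine, doxorubicin and dexamethasone. The members were taken from the treatment labels and comprised 3 CVAD and 3 saline libraries, 6 of the 30 libraries of the series. All mice were wild-type male C57BL/6J, perfused with RNAlater before the L3 to L5 ganglia of both sides were taken. The labels give no doses and do not say whether a library holds 1 animal or a pool, so every p-value measures only the spread between libraries. For context, 4 other groups of 3 libraries were used: cyclophosphamide alone on day 2, dexamethasone alone on day 2, CVAD on day 8 and saline on day 8.

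These ganglia contain sensory neuron bodies wrapped by satellite glia, with Schwann cells along the axons and resident macrophages and blood vessels between them. Cyclophosphamide and doxorubicin damage DNA, vincristine blocks microtubule assembly, and dexamethasone activates the glucocorticoid receptor. Vincristine is known for causing sensory neuropathy, and the same drugs kill dividing blood precursors.

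Total RNA had been sequenced and deposited as TPM, a transcript abundance scaled to gene length and to 1 total per library, so read depth is unknown. Of 56686 genes, 25434 had at least 1 TPM in at least 3 of the 30 libraries and were tested. Every library listed 0 for the 37 genes of the mitochondrial genome and for Rps2, Rps25, S100a8 and S100a9, so a listed 0 was not read as absence. Pairs of the 6 libraries correlated at r = 0.963 to 0.9696 within a group and 0.961 to 0.968 between groups, across genes. Neuronal genes were high in all 6 libraries. Calca, the precursor of the peptide CGRP, lay at 222, 252 and 244 TPM in CVAD ganglia and 238, 256 and 252 TPM in saline ganglia.

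The library names are numbered. CVAD libraries are 1 to 3 and saline libraries of day 2 are 10 to 12, and some genes separated libraries 1 to 8 from the rest. That range also holds cyclophosphamide on day 2 (4 to 6) and replicates 1 and 2 of dexamethasone (7 and 8), while dexamethasone replicate 3 is library 9. A limma term for libraries 1 to 8 can be estimated only through the 3 dexamethasone libraries and so rests on replicate 3 alone. It gave 12 called genes, all higher in dexamethasone replicates 1 and 2 than in replicate 3. The median of the term over all genes was 0.09 on the log2 scale. The labels do not say what the numbers stand for. The drug and the library range cannot be told apart except through that 1 library. Values for the other day 2 groups, or values with the term, are given beside some results for this reason.

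On day 2, few genes separated CVAD from saline ganglia. The limma fit called 11 genes (0.0432% of those tested) at an adjusted p under 0.05, 10 of them higher and 1 lower in CVAD. At an unadjusted p under 0.05, 2084 genes were reached, 1774 higher (6.97%) and 310 lower (1.22%). All 3 CVAD libraries lay above all 3 saline libraries for 2862 genes (11.3%) and below them for 578 genes (2.27%). The median of all genes was 0.07 higher in CVAD on the scale of log2(TPM + 1), and 65.9% of genes were higher. Differences below are on that scale, which understates changes of genes near or under 1 TPM. The lean toward higher values depended on scaling: with median-ratio scaling 55.9% of the genes at p under 0.05 were higher, against 85.1% with TPM as deposited, and with protein-coding genes alone it was 62.6%. Among the called genes the split was 11 higher of 14 with median-ratio scaling, and no gene was called with protein-coding genes alone.

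The count of 11 did not hold when single libraries were left out, which also leaves fewer libraries for the test. Without CVAD replicate 1, CVAD replicate 2, saline replicate 1 or saline replicate 2, limma called 0 genes (1374 to 1808 genes had an unadjusted p under 0.05). Without CVAD replicate 3 it called 4, and without saline replicate 3 it called 2. With the term for libraries 1 to 8 it called 2 genes, both lower in that fit and neither among the 11. Those were AU022252 and Map4k1, which are named here only because so few were called. Without the term they differed by only -0.008 and -0.03 between CVAD and saline. AU022252 held 41.6, 44.5 and 15.2 TPM in dexamethasone replicates 1, 2 and 3, and Map4k1 held 4.10, 7.81 and 0 TPM. The calls thus rest on dexamethasone replicate 3.

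Zfp90 (ENSMUSG00000031907, chromosome 8), a KRAB zinc finger protein, was the clearest protein-coding difference. It stood at 21.02, 21.7 and 20.1 TPM in CVAD ganglia, against 14.7, 14.4 and 15.8 TPM in saline ganglia. The groups were well apart, with means of 20.9 ± 0.842 TPM in CVAD and 14.97 ± 0.722 TPM in saline (SD, n = 3 each). Zfp90 rose by 0.46 ± 0.08 (log2, SE), with a limma adjusted p of 0.0443. Cyclophosphamide ganglia held 14.8, 17.7 and 16.9 TPM, the lowest of which was within the saline range. Dexamethasone ganglia lay between CVAD and saline at 18.6, 16.6 and 18.5 TPM. All 3 CVAD values were above every other day 2 value. With the term for libraries 1 to 8 the difference was 0.53, adjusted p = 1. Leaving out 1 library at a time kept the difference between 0.43 and 0.49 with adjusted p from 0.0617 to 0.264, so each of the 6 libraries was needed for the call. On day 8, CVAD ganglia held 15.6, 14.9 and 15.3 TPM and saline ganglia 16.5, 13.6 and 15.1 TPM, which overlap.

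Rps23 (ENSMUSG00000049517, chromosome 13), a protein of the small ribosomal subunit, was the other protein-coding gene called. It measured 131, 120 and 109 TPM in CVAD ganglia, against 81.7, 95.8 and 89.2 TPM in saline ganglia. Rps23 rose by 0.43 ± 0.08 (limma adjusted p = 0.0443). Unlike Zfp90, it was as high with cyclophosphamide, at 111, 106 and 120 TPM, and dexamethasone replicates 1 and 2 at 117 and 104 TPM lay above replicate 3 at 93.9 TPM. With the term the difference was 0.20, adjusted p = 1. Left-out libraries gave 0.37 to 0.50 and adjusted p from 0.0473 to 0.289, and only the fit without CVAD replicate 3 kept the call.

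**Figure D1:**
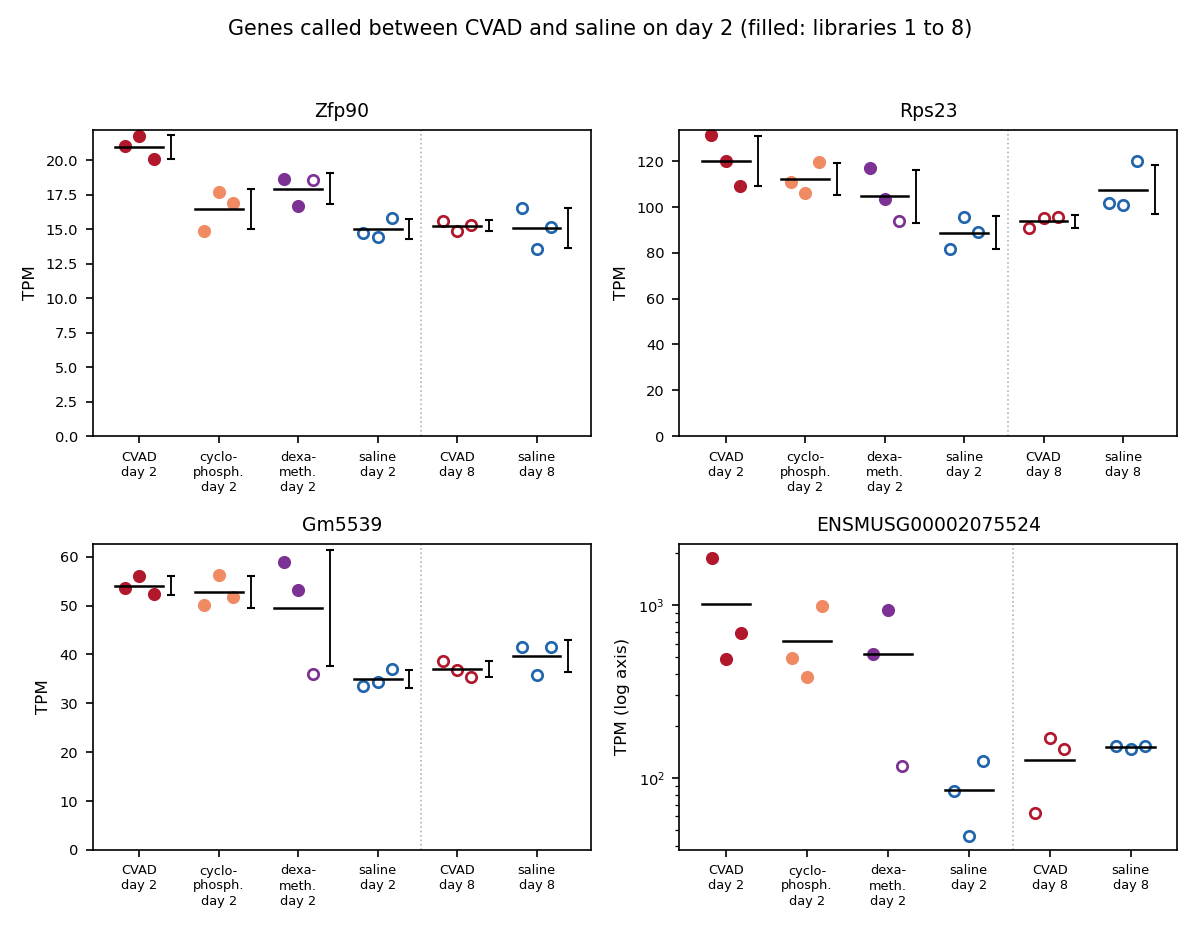
TPM of 4 genes called between CVAD and saline on day 2, 1 point per library, for 6 groups of 3 libraries; black lines are group means, bars are SD (none on the log axis) and filled points are libraries numbered 1 to 8. Zfp90 is highest in the 3 CVAD libraries of day 2, between 20.1 and 21.7 TPM, whereas Gm5539 and ENSMUSG00002075524 are high in all filled points and lower in dexamethasone replicate 3.

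The other 9 called genes were 3 processed pseudogenes and 6 short RNA loci without a gene symbol. Gm5539, a processed pseudogene, stood at 53.6, 56.1 and 52.4 TPM in CVAD ganglia and 33.5, 34.4 and 37.1 TPM in saline ganglia (log2 difference 0.61 ± 0.12, limma adjusted p = 0.0461). It was equally high in cyclophosphamide ganglia at 50.1, 56.3 and 51.7 TPM. Dexamethasone replicates 1 and 2 were high at 58.9 and 53.3 TPM and replicate 3 was low at 36.1 TPM. The pseudogenes Gm5561 and Gm48088 showed the same arrangement, with differences of 0.94 and 0.97, and had nearly the same values as each other in every library. Processed pseudogenes can share reads with their parent gene or with each other, so these values are uncertain.

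The 5 loci annotated as miRNA genes and called higher were ENSMUSG00002075524, ENSMUSG00002075551, ENSMUSG00002075501, ENSMUSG00002076173 and ENSMUSG00002076451. ENSMUSG00002075524 (chromosome 9) held 1890, 486 and 688 TPM in CVAD ganglia, against 84.2, 46.0 and 125 TPM in saline ganglia. CVAD replicate 1 was by far the highest, and the groups did not overlap. Cyclophosphamide ganglia held 495, 384 and 990 TPM, and dexamethasone ganglia held 523, 934 and 117 TPM in replicates 1, 2 and 3. Rn18s-rs5, an 18S ribosomal RNA locus, had the same order without passing the test, at 857, 294 and 318 TPM in CVAD and 116, 79.3 and 128 TPM in saline (difference 2.02 ± 0.40, limma adjusted p = 0.0571). ENSMUSG00002076451 (chromosome 12) was at 107, 89.3 and 84.2 TPM in CVAD and at 1.26, 1.42 and 1.28 TPM in saline. It was at 92.6 and 85.6 TPM in dexamethasone replicates 1 and 2 and 1.32 TPM in replicate 3, and outside libraries 1 to 8 saline replicate 3 of day 8 held 23.1 TPM. The part of the library range in these values was not tested beyond the term described above.

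The only called gene lower in CVAD was ENSMUSG00002075948, a misc_RNA locus on chromosome 10. All 3 CVAD libraries listed it at 0, against 1.22, 1.34 and 1.19 TPM in the saline libraries of day 2. It passed the filter on low values only through those 3 saline libraries, so its call had to come with a difference and is given as a description. It was also listed at 0 in all cyclophosphamide and dexamethasone libraries of day 2 and in all CVAD and saline libraries of day 8.

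Ndufa12, Tdrd6, Hoxc5 and Acp1 were higher in CVAD without passing the threshold. They had the smallest p of the protein-coding genes that the naming rule admits. Tdrd6, a Tudor domain protein of the germ line, stood at 5.60, 9.10 and 6.22 TPM in CVAD ganglia and at 2.11, 1.61 and 3.13 TPM in saline ganglia (1.28 ± 0.29, limma adjusted p = 0.112). It was also low in cyclophosphamide ganglia, at 1.49, 2.60 and 3.84 TPM. Ndufa12, a subunit of respiratory complex I, measured 120, 149 and 133 TPM in CVAD and 90.2, 108 and 96.4 TPM in saline (0.44 ± 0.10, adjusted p = 0.106), while cyclophosphamide ganglia held 139, 127 and 107 TPM. Acp1, a low molecular weight phosphatase, measured 49.3, 54.3 and 49.5 TPM in CVAD and 35.6, 43.4 and 42.6 TPM in saline (adjusted p = 0.114). Hoxc5, a homeobox transcription factor, measured 25.9, 30.7 and 29.3 TPM in CVAD and 17.5, 19.95 and 19.9 TPM in saline (adjusted p = 0.113). The naming rule admitted only genes whose groups did not overlap, so the lack of overlap in these 4 was set by the choice.

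Among genes lower in CVAD, Mrgprb5, an orphan receptor of the Mas-related family, had the smallest p of those chosen by the naming rule. It stood at 36.3, 39.1 and 41.9 TPM in CVAD ganglia, against 51.8, 53.2 and 58.7 TPM in saline ganglia (log2 difference -0.47 ± 0.11, limma adjusted p = 0.113). CVAD was also lowest of the day 2 groups here, with 55.1, 53.2 and 46.4 TPM in cyclophosphamide ganglia and 46.1, 44.6 and 51.7 TPM in dexamethasone ganglia. On day 8 the order was the opposite, at 63.6, 49.3 and 61.8 TPM in CVAD and 50.6, 53.3 and 42.7 TPM in saline, with overlap. Hoxd4, another homeobox factor, measured 14.4, 21.1 and 17.1 TPM in CVAD and 29.4, 28.8 and 33.2 TPM in saline (-0.77 ± 0.20, adjusted p = 0.169). Nat14, a putative acetyltransferase, measured 16.4, 14.7 and 17.7 TPM in CVAD and 23.6, 23.7 and 26.5 TPM in saline (adjusted p = 0.184). Rangrf, a Ran-binding factor, varied more, at 1.85, 4.92 and 5.46 TPM in CVAD and 25.8, 10.2 and 31.3 TPM in saline (adjusted p = 0.176). It was also high in 1 dexamethasone library, at 30.8 TPM.

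Heat shock chaperones refold damaged proteins and are induced through heat shock factors. Of the 20 members tested, 3 were higher and 17 lower in CVAD, with a median of -0.09 against 0.07 for all genes. Under the term for libraries 1 to 8, 10 of the 20 were higher and the median was -0.01. No member passed the adjusted test in this comparison. At an unadjusted p under 0.05, 5 of the 20 were lower, against 1.22% of all genes. All CVAD values lay below all saline values for 7, against 2.27% of all genes. Hspa1a and Hspa1b, the inducible HSP70 genes, lie side by side on chromosome 17, and their upstream sequences are shown because both were called for the difference between days. The 250 bases before each start differ at 3 positions (RefSeq, GRCm38.p6, minus strand, chr17:34972157-34972406 and chr17:34959239-34959488). Capitals mark the heat shock half-site pair GAANNTTC, the only motif searched, which reads the same on both strands and lies 104 to 97 bases before the start in each.
Hspa1a: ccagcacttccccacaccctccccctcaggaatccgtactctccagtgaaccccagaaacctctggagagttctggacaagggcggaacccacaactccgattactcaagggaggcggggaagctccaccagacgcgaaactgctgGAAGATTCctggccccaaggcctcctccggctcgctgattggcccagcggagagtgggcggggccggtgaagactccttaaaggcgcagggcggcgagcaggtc
Hspa1b: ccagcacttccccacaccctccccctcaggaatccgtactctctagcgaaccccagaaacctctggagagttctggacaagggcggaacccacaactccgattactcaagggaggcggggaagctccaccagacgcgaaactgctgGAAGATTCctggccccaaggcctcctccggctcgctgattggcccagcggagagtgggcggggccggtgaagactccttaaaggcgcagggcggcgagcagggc
The motif was present in 6.69% of 32817 promoter windows of this length, and a match is a description of the letters only.

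Hspa1a stood at 19.3, 23.1 and 17.8 TPM in CVAD ganglia, against 31.2, 30.5 and 45.2 TPM in saline ganglia. Hspa1b stood at 19.4, 21.9 and 19.1 TPM in CVAD, against 30.8, 29.2 and 40.1 TPM in saline. In both genes all CVAD values were below all saline values, with differences of -0.78 ± 0.23 for Hspa1a (limma adjusted p = 0.271) and -0.69 ± 0.18 for Hspa1b (adjusted p = 0.173). Since the genes are near copies, reads could be split between them and they are not 2 independent observations. Cyclophosphamide ganglia were as low as CVAD, at 20.9997, 26.3 and 21.2 TPM for Hspa1a. Dexamethasone replicates 1 and 2 were low too, at 24.3 and 21.8 TPM, and replicate 3 was high at 42.3 TPM. Saline libraries of day 8, which lie outside libraries 1 to 8, were also low, at 16.6, 21.996 and 23.7 TPM. The part of the library range in these values was not tested beyond the term. With the term for libraries 1 to 8 the difference was 0.07 for Hspa1a and 0.10 for Hspa1b.

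The day 8 ganglia had the opposite order. Hspa1a stood at 36.4, 38.3 and 54.2 TPM in CVAD and 16.6, 21.996 and 23.7 TPM in saline on day 8. Hspa1b stood at 36.3, 37.1 and 46.5 TPM in CVAD and 19.1, 23.8 and 23.9 TPM in saline. The difference between days, tested as an interaction, was -1.79 ± 0.32 for Hspa1a (limma adjusted p = 0.0283) and -1.51 ± 0.26 for Hspa1b (adjusted p = 0.0193). These were 2 of the 21 genes called for the difference between days (0.0826%), of which 15 were higher and 6 lower on day 2 relative to day 8. Saline ganglia of day 2 minus those of day 8 gave 0.74 for Hspa1a and 0.56 for Hspa1b, neither past the limma test (adjusted p = 0.456 and 0.493). Both the treated and the control libraries enter the difference between days, and of these groups only CVAD on day 2 lies within libraries 1 to 8.

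**Figure D2:**
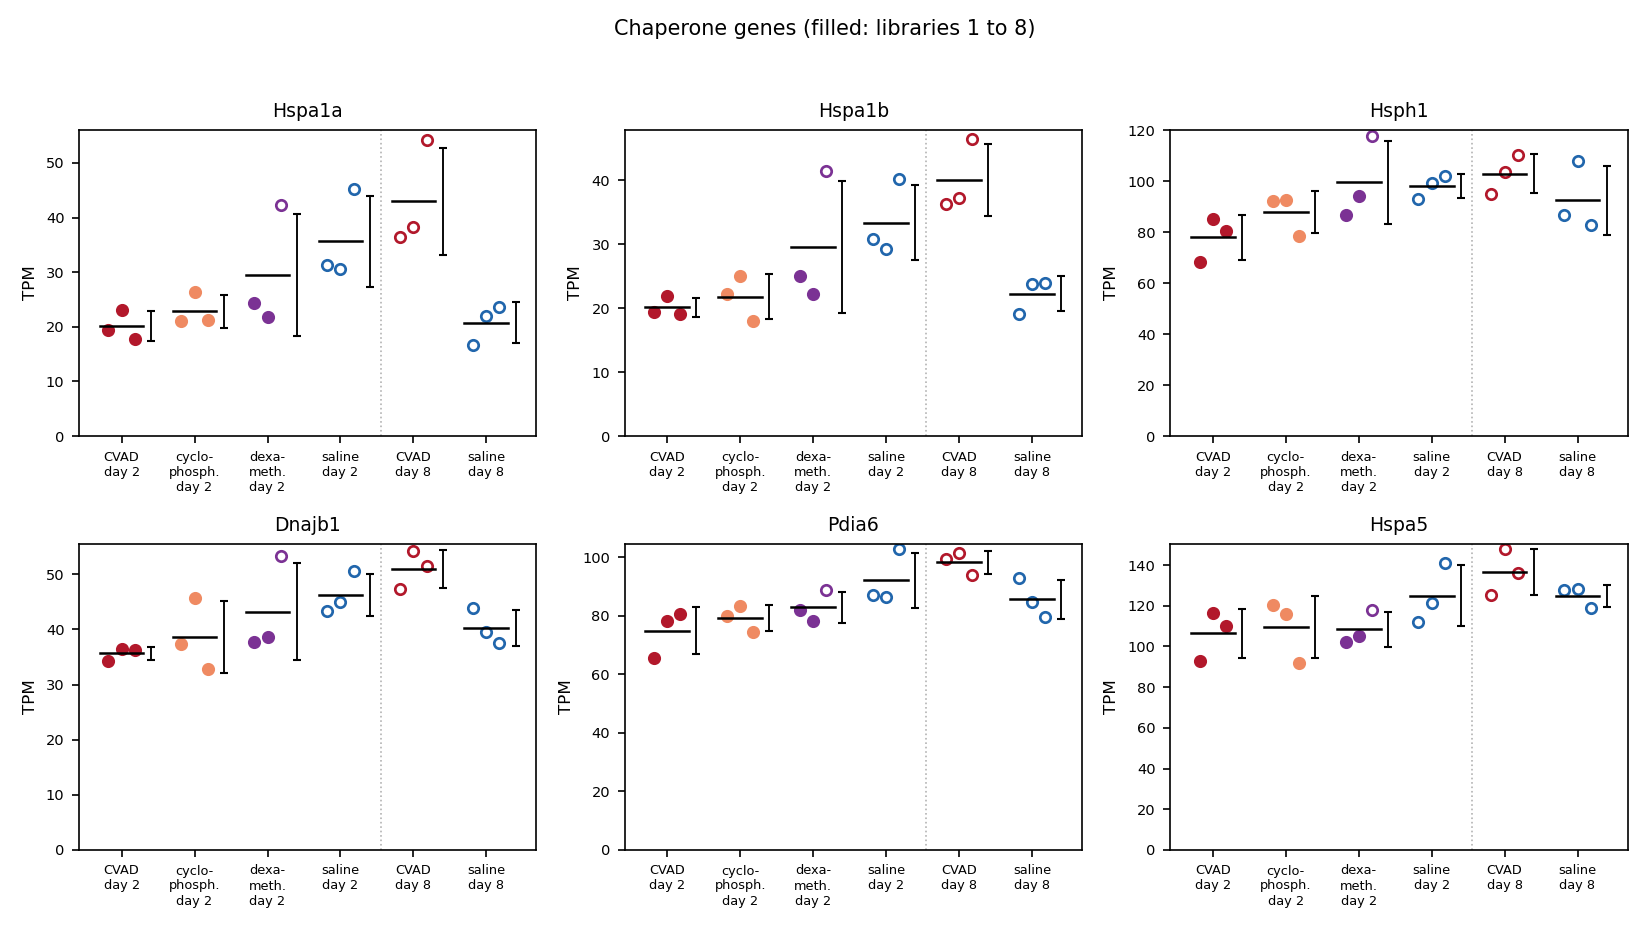
TPM of 6 chaperone genes in 6 groups of 3 libraries, 1 point per library, with group means (black lines), SD bars and filled points for libraries 1 to 8. In Hspa1a and Hspa1b the CVAD libraries lie below saline on day 2 and above saline on day 8, and dexamethasone replicate 3 stands above replicates 1 and 2.

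Other chaperones were lower by less. Hsph1, a nucleotide exchange factor of HSP70, measured 68.1, 85.3 and 80.5 TPM in CVAD and 93.3, 99.2 and 102 TPM in saline (-0.33 ± 0.11, limma adjusted p = 0.336). Dnajb1, an HSP40 cochaperone, measured 34.3, 36.4 and 36.3 TPM in CVAD and 43.3, 44.9 and 50.5 TPM in saline (adjusted p = 0.360). Hspa8, the constitutive HSP70, differed by 0.01 and its groups overlapped. Of 22 genes of endoplasmic reticulum and integrated stress, 4 were higher and 18 lower, with a median of -0.08. With the term 11 of these 22 were higher and the median was 0.003. Pdia6, a disulfide isomerase, measured 65.7, 78.4 and 80.5 TPM in CVAD and 87.0, 86.5 and 103 TPM in saline (-0.30 ± 0.09, adjusted p = 0.277). With median-ratio scaling Pdia6 passed the test (adjusted p = 0.0388). Hspa5, the chaperone BiP, measured 93.1, 117 and 110 TPM in CVAD and 112, 121 and 141 TPM in saline, with overlap.

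Genes of neutrophils and their precursors were higher in CVAD than in saline ganglia on day 2, none past the adjusted test. Late granule genes, which load the granules of maturing neutrophils, were higher for 17 of 18 tested with a median of 0.55. Of these, 6 were higher at an unadjusted p under 0.05, against 6.97% of all genes. All CVAD values lay above all saline values for 5, against 11.3% of all genes. Their summed level was 276, 573 and 340 TPM in CVAD ganglia and 206, 232 and 319 TPM in saline ganglia, which overlap. The sums were 196, 283 and 242 TPM with cyclophosphamide and 365, 283 and 171 TPM with dexamethasone. CVAD replicate 2 was the highest of the 12 libraries, and without it the list's median was 0.21. In whole ganglia, more cells of a type and more RNA per cell cannot be told apart, nor can fewer cells and less RNA per cell.

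Camp (ENSMUSG00000038357, chromosome 9), the antimicrobial cathelicidin, stood at 17.6, 34.6 and 26.3 TPM in CVAD ganglia and at 8.40, 11.5 and 17.8 TPM in saline ganglia (1.01 ± 0.35, limma adjusted p = 0.386). Cd177, a surface protein of neutrophils, stood at 10.2, 20.2 and 11.5 TPM in CVAD and at 4.51, 6.64 and 7.52 TPM in saline (1.016 ± 0.35, adjusted p = 0.386). The Cd177 groups did not overlap, and the Camp groups overlapped by 1 value. Ngp, a granule protein, had 63.6, 114 and 74.4 TPM in CVAD and 43.5, 47.6 and 63.7 TPM in saline. Itgb2l, an integrin subunit of neutrophils, had 3.05, 10.2 and 4.39 TPM in CVAD and 1.54, 1.29 and 2.76 TPM in saline. The azurophil granule list of younger granulocytes, which also holds the eosinophil gene Epx, was higher for 12 of 13 with a median of 0.74. That median was 0.35 without CVAD replicate 2, and with the term it was -0.44 with 5 of 13 higher. Of the 13, 2 were higher at an unadjusted p under 0.05, against 6.97% of all genes. All CVAD values lay above all saline values for 3 of them, against 11.3% of all genes. Fcnb, a ficolin, had 4.73, 10.5 and 4.43 TPM in CVAD and 4.47 TPM in 1 saline library, and was listed at 0 in the other 2.

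Against cyclophosphamide, which lies in the same library range, 17 of 18 late granule genes were again higher, with a median of 0.65, while 51.9% of all genes were higher. Both comparisons use the same CVAD libraries. With the term for libraries 1 to 8, the late granule median against saline was -0.34 and 4 of the genes were higher, and that term rests on dexamethasone replicate 3. Red cell precursor genes, which mark blood and marrow, summed to 258, 418 and 491 TPM in CVAD ganglia and 345, 380 and 405 TPM in saline ganglia, and 12 of 22 were higher, or 1 of 22 with the term. B cell and immunoglobulin genes were higher for 6 of 21, with a median of -0.19. The part of blood or marrow cells in these values was not tested, and the neutrophil markers S100a8 and S100a9 were listed at 0 throughout.

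On day 8 the granule genes lay on the other side. None of the 18 late granule genes and 1 of the 13 azurophil genes was higher in CVAD, with medians of -1.41 and -1.84. Camp stood at 8.80, 8.69 and 9.15 TPM in CVAD and at 28.1, 40.3 and 45.6 TPM in saline on day 8, without overlap. Its difference between days was 2.96 ± 0.49 (limma adjusted p = 0.0193). The interaction was also called for Cd177 at 2.91 ± 0.50 (adjusted p = 0.0193), for Ngp at 2.25 ± 0.41 (adjusted p = 0.0283) and for Itgb2l at 2.92 ± 0.55 (adjusted p = 0.0366). Elane, neutrophil elastase, Epx, eosinophil peroxidase, and Fcnb passed too, at 2.92, 3.95 and 4.60 (adjusted p = 0.0444, 0.0444 and 0.0496). In CVAD on day 8, Epx was listed at 0 in all 3 libraries and Fcnb at 1.45, 0 and 0 TPM. In saline on day 2, Epx held 0.355, 0.523 and 1.83 TPM. With a pseudocount of 0.1 the Epx difference was 7.83 and Fcnb was not called, so these results depend on values near 0. Rac2, a GTPase of blood cells, stood at 9.69, 13.5 and 9.59 TPM in CVAD and 5.99, 4.20 and 7.62 TPM in saline on day 2. On day 8 it stood at 6.85, 4.84 and 4.67 TPM in CVAD and 13.9, 13.3 and 14.7 TPM in saline, giving a difference between days of 2.03 ± 0.34 (adjusted p = 0.0193).

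Saline ganglia on day 2 minus saline ganglia on day 8 gave a median of -0.84 for the late granule genes and -1.55 for Camp (limma adjusted p = 0.2997 for Camp). Leaving out 1 of the 12 libraries at a time kept the sign of all 12 such interactions described here, but no gene kept its call in every fit. Camp and Cd177 were called in 7 of 12 fits, Rac2 and Hspa1b in 6, and Ngp and Rps23 in 5. Itgb2l and Hspa1a were called in 3, Elane and Fcnb in 2, Epx in 1 and Zbtb40 in 0. With the term for libraries 1 to 8, none of these genes was called. The count of 21 became 0 without CVAD replicate 3 of day 8, 1 without CVAD replicate 2 or saline replicate 1 of day 2 or CVAD replicate 2 of day 8, and 2 without saline replicate 3 of day 8. It became 6 without CVAD replicate 1 of day 2 and 8 without saline replicate 2 of day 2. It became 12 without CVAD replicate 3 of day 2, and 13 without CVAD replicate 1 or saline replicate 2 of day 8.

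**Figure D3:**
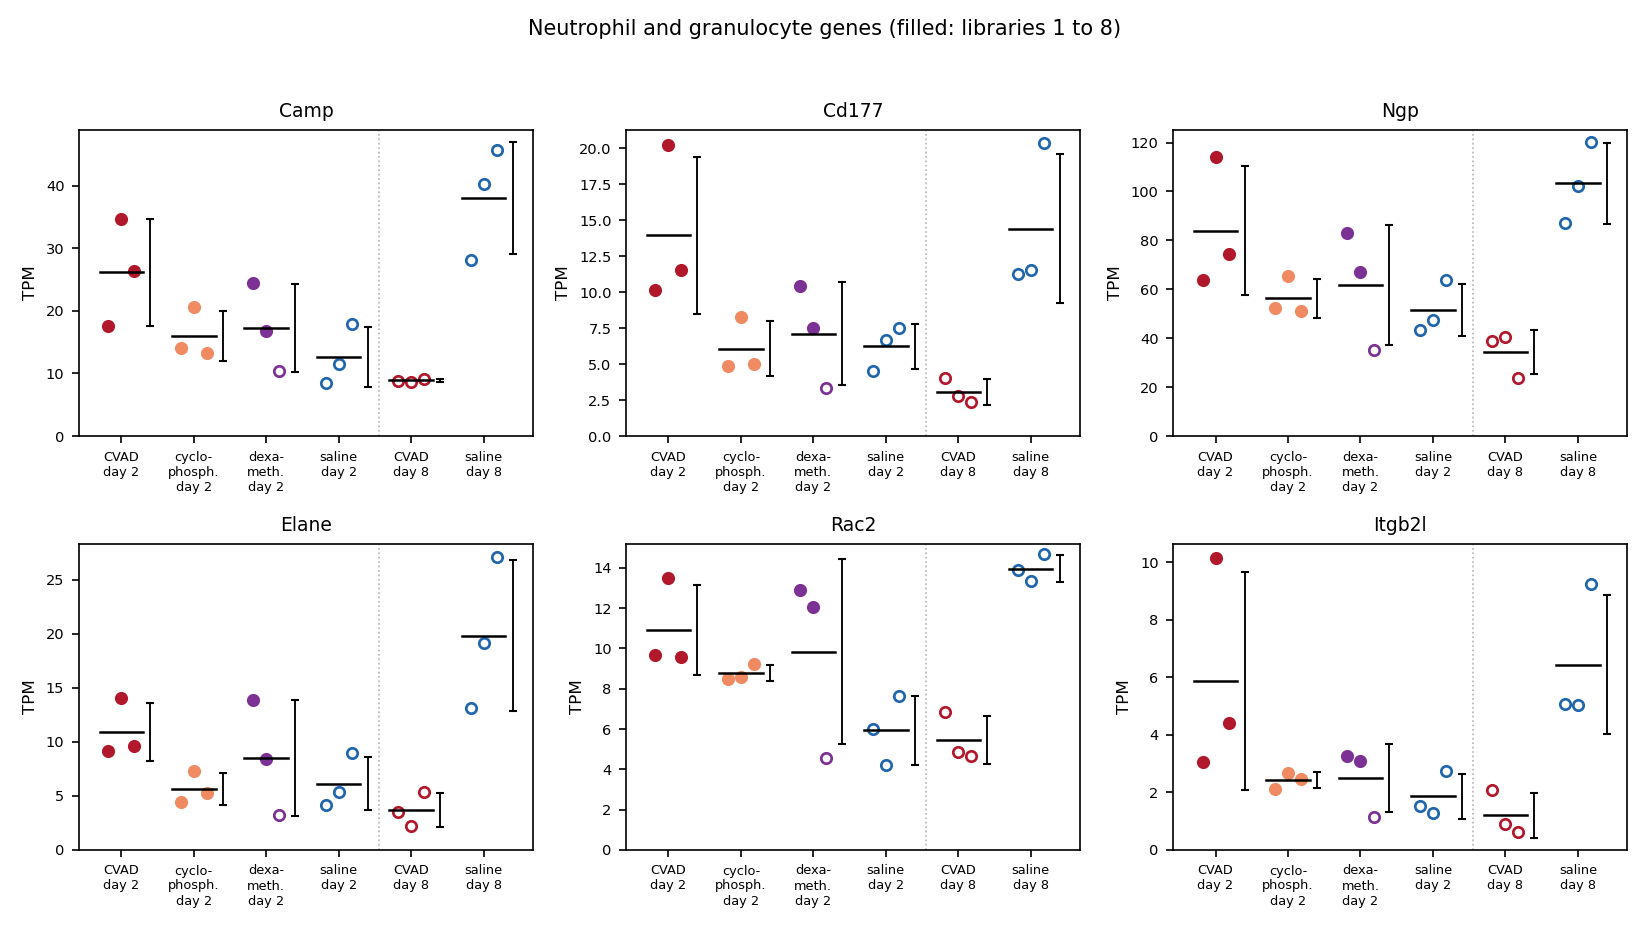
TPM of 6 neutrophil and granulocyte genes in 6 groups of 3 libraries, 1 point per library, with group means (black lines), SD bars and filled points for libraries 1 to 8. CVAD is above saline on average on day 2 and below it on day 8, and saline itself is lower on day 2 than on day 8, as for Camp at 8.40 to 17.8 TPM on day 2 and 28.1 to 45.6 TPM on day 8.

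The remaining genes called for the difference between days were Rps23 at 0.62 ± 0.11 (limma adjusted p = 0.0298) and Zbtb40, a zinc finger gene, at -0.77 ± 0.15 (adjusted p = 0.0444), together with 9 predicted genes, pseudogenes or RNA loci. Zbtb40 stood at 11.4, 12.1 and 12.3 TPM in CVAD and 13.7, 14.6 and 17.95 TPM in saline on day 2. On day 8 it stood at 15.7, 17.8 and 16.3 TPM in CVAD and 12.8, 10.2 and 13.2 TPM in saline. Its groups did not overlap on either day. Leaving out any 1 of the 12 libraries ended the call of Zbtb40 (adjusted p = 0.0550 to 0.108).

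Cyclophosphamide is 1 of the 4 drugs of the combination, and few genes separated CVAD ganglia from ganglia given it alone. Limma called 1 gene (0.00393%) between CVAD and cyclophosphamide on day 2, and 975 genes had an unadjusted p under 0.05. The called gene was Gm50451, a snoRNA locus at 0 in all CVAD libraries of day 2, against 5.13, 3.67 and 4.34 TPM in the cyclophosphamide libraries. Without those 3 cyclophosphamide libraries it would not have passed the filter on low values, so its call is given as a description. It was also listed at 0 in all saline and dexamethasone libraries of day 2. Without CVAD replicate 1 or 2 or cyclophosphamide replicate 1 or 3 limma called 0 genes, without CVAD replicate 3 it called 1 and without cyclophosphamide replicate 2 it called 2. Gm50451 was among the called genes in none of these 6 fits. Between CVAD and dexamethasone on day 2 limma called 0 genes, with 931 at an unadjusted p under 0.05. Against saline on day 2, cyclophosphamide gave 3 called genes and dexamethasone 1; these share the saline libraries with the CVAD comparison.

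Ribosomal protein genes were higher for 50 of 71 tested, with a median of 0.10 against 0.07 for all genes. Among them, 9 were higher at an unadjusted p under 0.05, against 6.97% of all genes, and Rps23 alone was called. Rpl11 and Rpl5, the ribosomal proteins that bind MDM2, stood at 107, 100 and 97.4 TPM and at 116, 102 and 90.0 TPM in CVAD, against 72.8, 84.6 and 82.5 TPM and 74.2, 79.6 and 85.5 TPM in saline. Neither passed the limma test (adjusted p = 0.182 and 0.235). Pseudogenes named for ribosomal proteins leaned further, 126 of 165 higher with a median of 0.19. With the term for the library range that median was 0.08, and against cyclophosphamide it was 0.10. Among all processed pseudogenes tested, 14.9% were higher at an unadjusted p under 0.05, against 6.65% of protein-coding genes. The median of all processed pseudogenes was 0.14 against saline, and -0.04 with the term, where all genes had -0.03. Against cyclophosphamide it was 0.01. The part of the library range in the lean of the pseudogenes was not tested beyond the term.

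Genes of cholesterol synthesis were higher for 24 of 25 with a median of 0.14. Of the 25, 7 were higher at an unadjusted p under 0.05, against 6.97% of all genes. Lss, lanosterol synthase, stood at 70.2, 80.2 and 87.2 TPM in CVAD and at 48.3, 51.6 and 64.2 TPM in saline (0.53 ± 0.18, limma adjusted p = 0.373). The Lss groups did not overlap. Against cyclophosphamide the list's median was 0.01, and on day 8 it was -0.09 with 1 of 25 higher.

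Interferon-induced genes were higher for 37 of 39 with a median of 0.22. At an unadjusted p under 0.05, 7 were higher and 1 lower, against 6.97% and 1.22% of all genes. The term for libraries 1 to 8 gave a median of -0.10 with 14 of 39 higher, and without saline replicate 3 the median was 0.39. Zbp1, a sensor of Z-form nucleic acid, stood at 2.95, 5.85 and 5.08 TPM in CVAD and at 1.33, 1.25 and 2.79 TPM in saline (1.02 ± 0.34, limma adjusted p = 0.373). Gbp3, a guanylate binding protein, stood at 18.7, 13.2 and 16.4 TPM in CVAD and at 6.40, 9.85 and 13.9 TPM in saline. The Zbp1 groups did not overlap and the Gbp3 groups did. Against cyclophosphamide the list was even, with 20 of 39 higher and a median of 0.01. Cytokine and chemokine genes were higher for 21 of 23, with a median of 0.23. Tnf stood at 1.57, 0.653 and 1.18 TPM in CVAD and at 0.584 TPM in 1 saline library, and was listed at 0 in the other 2.

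Cell division genes were higher for 39 of 45 with a median of 0.30. Of the 45, 3 were higher at an unadjusted p under 0.05, no more than the share of 6.97% of all genes. Mki67, the proliferation marker, varied widely within CVAD, at 4.06, 13.01 and 11.4 TPM, and stood at 3.32, 4.25 and 8.10 TPM in saline (limma adjusted p = 0.769). Aurkb, the mitotic kinase Aurora B, stood at 2.95, 4.68 and 3.91 TPM in CVAD and at 0.816, 0 and 4.49 TPM in saline. With the term for libraries 1 to 8 the list's median was -0.44, and 5 of 45 were higher. Replication-dependent histone genes behaved alike, 46 of 54 higher with a median of 0.17 and -0.40 with the term. The direction of both lists turned with the term.

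Known targets of the drugs did not pass the test. Among p53 targets, which DNA damage induces, 24 of 28 were higher with a median of 0.14. Of the 28, 1 was higher at an unadjusted p under 0.05, against 6.97% of all genes. Cdkn1a, the cell cycle inhibitor p21, stood at 112, 114 and 97.1 TPM in CVAD and at 84.5, 87.3 and 113 TPM in saline (0.19 ± 0.16, limma adjusted p = 0.846). Ddb2, a DNA damage sensor, stood at 19.3, 12.9 and 14.3 TPM in CVAD and at 11.3, 11.97 and 12.6 TPM in saline. Neither gene passed the test (Ddb2 adjusted p = 0.648). Glucocorticoid targets were higher for 21 of 27 with a median of 0.11, which became -0.04 without CVAD replicate 1. Fkbp5, a standard glucocorticoid target, stood at 90.2, 62.0 and 43.4 TPM in CVAD and at 45.5, 49.8 and 96.5 TPM in saline, and Tsc22d3, another one, at 134, 119 and 111 TPM in CVAD and 98.3, 110 and 142 TPM in saline. CVAD replicate 1 and saline replicate 3 were the highest of their groups in both, and the differences of 0.05 and 0.07 were -0.03 and -0.01 with median-ratio scaling.

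Against cyclophosphamide, 23 of 27 glucocorticoid targets were higher in CVAD, with a median of 0.17, and on day 8 against saline 23 of 27 were higher, with a median of 0.22. Against dexamethasone alone on day 2, 23 of 27 were also higher in CVAD, with a median of 0.22, while 53.2% of all genes were higher. The targets summed to 1221, 1096 and 1116 TPM with dexamethasone, within the saline range of 1032 to 1639 TPM. Nqo1, an antioxidant enzyme under NRF2, stood at 24.5, 23.04 and 19.1 TPM in CVAD and at 15.1, 16.5 and 14.3 TPM in saline on day 2, without overlap (0.51 ± 0.13, limma adjusted p = 0.160). Its list was higher for 17 of 23 with a median of 0.04 against 0.07 for all genes. Circadian clock genes were higher for 11 of 17 with a median of 0.11, while 65.9% of all genes were higher. The clock median was -0.02 without saline replicate 1.

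No sensory neuron gene of the lists below passed the adjusted test. Nociceptor genes were higher for 7 of 20 with a median of -0.04, and no member had an unadjusted p under 0.05. Trpv1, the capsaicin receptor, stood at 85.3, 88.8 and 79.6 TPM in CVAD and at 71.9, 77.9 and 87.0 TPM in saline (0.10 ± 0.13, limma adjusted p = 0.906). Calca differed by -0.06 ± 0.12, a difference smaller than its SE. Genes of large-diameter neurons were higher for 7 of 16, sodium and potassium channels for 13 of 32, and tubulins and axonal transport genes for 17 of 30, with medians of -0.0029, -0.01 and 0.01. Nuclear respiratory chain genes were higher for 22 of 50, with a median of -0.01. Against cyclophosphamide, CVAD was higher for 1 of 20 nociceptor genes and 3 of 16 genes of large-diameter neurons, while 51.9% of all genes were higher. It was higher for 4 of 32 channels, 3 of 30 tubulin and transport genes and 11 of 50 respiratory chain genes. The nociceptor sums overlapped, at 2014, 2265 and 2139 TPM in CVAD and 2575, 2393 and 1910 TPM with cyclophosphamide.

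No marker of nerve injury passed the adjusted test. Of 16 tested, 7 were higher. At an unadjusted p under 0.05, 1 was higher and 3 lower, against 6.97% and 1.22% of all genes. Atf3, which injured neurons switch on, stood at 13.8, 11.8 and 7.32 TPM in CVAD and at 16.8, 12.6 and 27.1 TPM in saline (-0.70 ± 0.33, limma adjusted p = 0.600). Jun, its partner, stood at 57.8, 60.5 and 59.7 TPM in CVAD and at 66.1, 66.4 and 76.4 TPM in saline (-0.22 ± 0.09, adjusted p = 0.515). The Jun groups did not overlap and the Atf3 groups did. Immediate early genes were higher for 7 of 16.

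Peripheral myelin genes were higher for 14 of 15, with a median of 0.08 against 0.07 for all genes, and none had an unadjusted p under 0.05. Against cyclophosphamide, 15 of 15 myelin genes were higher with a median of 0.26. Against dexamethasone 15 of 15 were higher too, with a median of 0.16, and on day 8 against saline 14 of 15, with a median of 0.18. With the term for libraries 1 to 8, which rests on dexamethasone replicate 3, 15 of 15 were higher than in saline of day 2, with a median of 0.31. Gjb1, the gap junction protein connexin 32, stood at 46.3, 50.3 and 46.7 TPM in CVAD and at 23.1, 28.7 and 44.3 TPM with cyclophosphamide. Spinal cord markers, a sign of attached roots or cord, were also higher than with cyclophosphamide for 16 of 17, with a median of 0.89, and their part in the myelin difference was not tested. Compared with dexamethasone, these markers were higher for 15 of 17, with a median of 0.85. They summed to 319, 238 and 233 TPM in CVAD, to 154, 157 and 181 TPM with cyclophosphamide and to 183, 305 and 402 TPM in saline. Satellite glia genes were higher than in saline for 5 of 13 with a median of -0.04.

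Some lists of other cell types in the dissected tissue varied widely within a group. Skeletal muscle genes summed to 557, 198 and 1434 TPM in CVAD ganglia and to 146, 878 and 2119 TPM in saline ganglia. Bone, osteoclast and cartilage genes were higher for 15 of 20, 6 of them at an unadjusted p under 0.05, against 6.97% of all genes. These genes summed to 337, 342 and 355 TPM in CVAD and 239, 254 and 411 TPM in saline. Mmp13, a collagenase of bone and cartilage, stood at 25.04, 10.8 and 13.7 TPM in CVAD and at 1.72, 1.13 and 6.86 TPM in saline (2.21 ± 0.56, limma adjusted p = 0.169). Ctsk, the osteoclast protease, stood at 40.3, 37.2 and 32.8 TPM in CVAD and at 17.3, 19.9 and 31.2 TPM in saline. Neither gene overlapped between groups, and neither passed the test. Erg, an endothelial transcription factor, stood at 13.02, 13.3 and 11.6 TPM in CVAD. In saline it stood at 5.51, 5.58 and 7.38 TPM (0.94 ± 0.24, limma adjusted p = 0.169). Endothelial genes were higher for 16 of 22, while 65.9% of all genes were higher. Macrophage genes were higher for 20 of 26, with a median of 0.11 against 0.07 for all genes. The macrophage median was -0.04 with the term for libraries 1 to 8. MHC class II genes were higher for 7 of 10 and T and NK cell genes for 11 of 14, with medians of 0.34 and 0.22. Both medians were negative with the term for libraries 1 to 8, at -0.53 and -0.41.

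**Figure D4:**
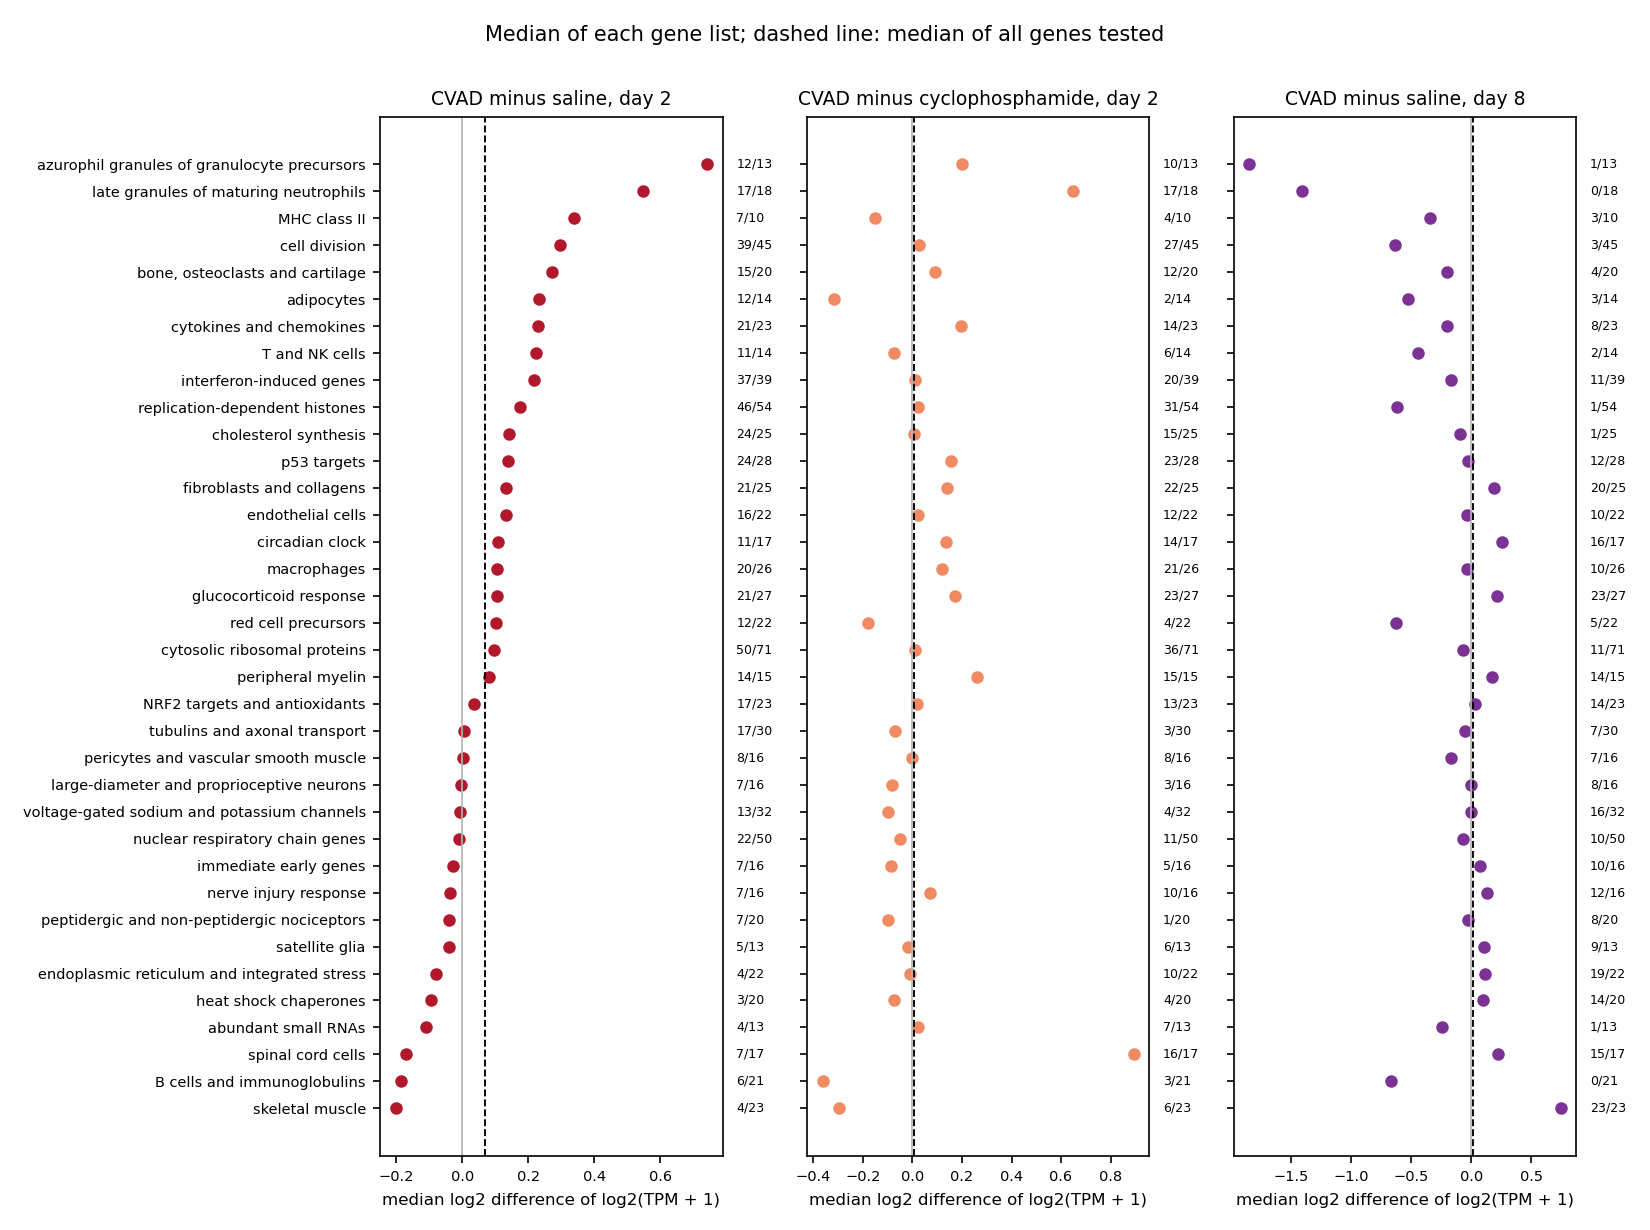
Median difference of log2(TPM + 1) of each of 36 gene lists in CVAD minus saline on day 2, CVAD minus cyclophosphamide on day 2 and CVAD minus saline on day 8, with the median of all tested genes as a dashed line and the number of genes higher beside each point; the first 2 panels share the CVAD libraries. The granule lists are highest against saline on day 2, at 0.74 and 0.55, and lowest on day 8, at -1.84 and -1.41.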

How the data were processed

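Gene expression was measured by total RNA-seq in 30 libraries of mouse lumbar dorsal root ganglia, 10 groups of 3. The authors deposited 1 table of TPM values per gene and library. Per the submitters' processing notes, the tools were StringTie 2.2.1, STAR 2.7.10b and FastQC 0.12.1, with GRCm39 and mm10 as builds; no role is given for any. Of 38983 genes matched by symbol, 0.744% had the start of the GRCm38 annotation, so no coordinate of the table is printed. Read depth is unknown.

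Genes with at least 1 TPM in at least 3 libraries were tested on log2(TPM + 1) with limma 3.58.1 (R 4.3.3): group means over all 30 libraries, a mean-variance trend, 2-sided tests and Benjamini-Hochberg adjustment over all 25434 genes, threshold 0.05. The method was tested on simulated data. Figures used matplotlib 3.10.9. Group membership came from treatment labels. Replicates were numbered in accession order and pair nothing. The comparison, gene lists and naming rule were chosen with earlier results of these data known. The rule named called protein-coding genes of at least 5 TPM without overlap, then those of smallest p up to 6 a direction, 3 genes of smallest p per list and 8 standard genes; the called pseudogenes and loci without a symbol, AU022252, Map4k1, Rn18s-rs5, Mir6236, Hspa8, Dnajb1, Ngp, Elane and Rac2 were chosen after their values were seen. Upstream sequences are from RefSeq, GRCm38.p6. Alternatives were another pseudocount, filters, scalings, library sets, quality weights, a term for libraries 1 to 8 and leaving out single libraries; a filter at 5 TPM and a fit without the dexamethasone libraries of day 2 were chosen after seeing the data. Some genes that the rule names are not reported here.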

Additional observations from a re-analysis of the deposited data

Results flagged for a closer look

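The effect of CVAD relative to saline differed between day 2 and day 8 by limma's interaction test for 12 genes described above. In log2 units, day 2 minus day 8, the difference was 2.96 for Camp, 2.91 for Cd177, 2.92 for Itgb2l, 3.95 for Epx, 2.25 for Ngp, 2.92 for Elane, 2.03 for Rac2 and 4.60 for Fcnb. It was -1.79 for Hspa1a, -1.51 for Hspa1b, -0.77 for Zbtb40 and 0.62 for Rps23. Adjusted p ranged from 0.0193 to 0.0496. Of the groups compared, only CVAD on day 2 lies within libraries 1 to 8, so the library range and the difference between days cannot be told apart. With the term for libraries 1 to 8 none of these genes was called, and none kept its call in every fit that left out 1 library. The sizes for Epx and Fcnb rest in part on listed values of 0. In Camp, saline on day 2 minus saline on day 8 was -1.55, and the day 2 and day 8 libraries have no common control. The groups of 3 libraries are too small to single out an outlying library.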

How the results depend on the processing

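The 11 genes called between CVAD and saline on day 2 were 2 with no filter, 0 with protein-coding genes alone, 1 with day 2 libraries alone, 4 with the 6 libraries alone, 98 with library quality weights and 2 with the term for libraries 1 to 8. Chosen after seeing the data, a filter at 5 TPM gave 17 and leaving out the dexamethasone libraries gave 81. Leaving out 1 library gave 0 to 4. The 1 gene against cyclophosphamide was 0 with a pseudocount of 0.1, with protein-coding genes alone and with weights, 6 with no filter, and 0 to 2 with 1 library left out. The 21 genes of the day difference were 11 with no filter, 36 with median-ratio scaling, 86 with weights, 1 with the term and 0 to 24 with 1 library left out. The cause of these shifts was not tested.

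Of 67 genes followed in CVAD against saline, 49 kept their sign throughout, and all 12 followed in the day difference did. With the term the log2 difference turned to -0.039 for Aurkb, 0.024 for Calca, -0.054 for Cd14, -0.18 for Cd177, -0.038 for Cdc20, -0.73 for Elane, -0.0061 for Gm5539, -0.55 for H2-Ab1, 0.067 for Hspa1a, 0.096 for Hspa1b, 0.043 for Hsph1, -1.13 for Mki67, -0.40 for Ngp, -0.48 for Rac2, 0.14 for Rnu2-10, -0.19 for Trpv1 and -0.076 for Tsc22d3. With median-ratio scaling it was -0.028 for Fkbp5 and -0.013 for Tsc22d3, and with protein-coding genes alone -0.000306 for Fkbp5. With 1 library left out it ranged from -0.21 to 0.38 for Fkbp5 and from -0.050 to 0.21 for Tsc22d3. The medians of 15 of 36 gene lists turned with the term. TPM gives no depth, so counting error could not be set beside these values. No paired analysis was possible because replicate numbers follow accession order and pair no libraries.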

Other observations

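Among non-coding genes, the U2 spliceosomal RNA gene Rnu2-10 stood at 70.6, 46.0 and 118 TPM in CVAD ganglia and at 159, 177 and 137 TPM in saline ganglia on day 2, without overlap (-1.09 ± 0.35, limma adjusted p = 0.330). It was 190 TPM in dexamethasone replicate 3, against 99.1 and 64.9 TPM in replicates 1 and 2. Mir6236, a locus annotated as a miRNA, stood at 147, 128 and 130 TPM in CVAD ganglia and at 72.9, 42.1 and 85.0 TPM in saline ganglia, also without overlap (1.06 ± 0.25, adjusted p = 0.113). It held 149, 112 and 110 TPM with cyclophosphamide and 114, 120 and 85.2 TPM with dexamethasone.

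The saline ganglia of the 2 days enter the comparisons with CVAD. Saline on day 2 minus saline on day 8 gave 1 called gene by limma, a median of -0.07 over all genes, and 20.2% higher among the 1762 genes at an unadjusted p under 0.05.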
